A study of Mus musculus with 34 samples.

Results

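The hippocampus and the neocortex of saline-injected young mice were compared with each other, using 6 hippocampal and 6 neocortical arrays of the 34 arrays in the study. All 12 arrays carry the label saline control in their titles and were taken by those titles. The comparison itself was chosen with earlier results of these data known. The mice were males given saline into the peritoneum on postnatal day 23, as 3 injections 2 h apart, and killed on postnatal day 30. The other 22 arrays come from the same 2 regions of males of the same age injected on the same schedule with nicotine (10 mg/kg, 6 hippocampal and 6 neocortical arrays) or kainate (15 mg/kg, 5 and 5). They enter here only where the regional difference in saline mice is set beside that in drug-treated mice. No transgene, deletion or strain is named in the labels. Total RNA was hybridised to Affymetrix oligonucleotide arrays, and each value is the brightness of a probe set on a linear scale, called signal below.

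The hippocampus is an older, simpler cortex in which granule cells of the dentate gyrus and pyramidal cells of the CA fields are packed into single cell layers. The neocortex has several layers of projection neurons, broadly divided into upper layers, which project within the cortex, and deep layers, which also project below it. Both contain GABA-releasing interneurons, astrocytes, oligodendrocytes, microglia and vessels, so a difference in whole-tissue RNA can come from which cells are present or from what each cell makes. With dissected tissue, fewer cells of a type and less RNA per cell cannot be told apart. Both dissections can also carry neighbouring tissue, such as choroid plexus beside the hippocampus and striatum beneath the neocortex.

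Array medians were 380.6 to 390.9 in the hippocampus and 375.8 to 422.0 in the neocortex. Pairs of arrays correlated at 0.943 to 0.958 within the hippocampus and 0.935 to 0.962 within the neocortex, against 0.922 to 0.954 between the regions (log2 values). The ratio of the 3′ to the 5′ probe set of actin, a measure of RNA integrity, was 1.36 to 1.6 in the hippocampus and 1.06 to 1.55 in the neocortex. By the control probe sets, hippocampal arrays 2, 5 and 6 formed a cluster of their own, and the other 3 hippocampal arrays fell with the 6 neocortical ones. Whether that cluster has a part in the results was tested only by leaving those arrays out. The calls below numbered 419 without them (3 arrays against 6). Of the 711 original calls still tested, 387 were kept and 0 changed sign. The arrays kept also made the original calls, so a kept sign is no independent support.

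Of 8695 probe sets tested, 717 (8.25%) differed between the regions at an adjusted p under 0.05, with 361 higher (4.15%) and 356 lower (4.09%) in the hippocampus. The higher calls covered 297 genes and the lower calls 301. Of the 717 calls, 73 had no single gene symbol, among them the call with the largest fold of all (10.19-fold higher in the hippocampus). Most differences were modest: the median fold of a call was 1.53, and 71 calls were more than 2-fold higher and 93 more than 2-fold lower. In 540 tested probe sets (6.21%) the 6 hippocampal and the 6 neocortical arrays did not overlap, with the hippocampus above in 285 and below in 255. Over 1 probe set per gene, the brightest, 574 of 6445 genes were called (8.91%), 289 higher (4.48%) and 285 lower (4.42%). The counts of gene lists below are given beside these shares. The lists were chosen with earlier results of these data known, so their counts describe them and are no independent test. The median log2 fold change of all tested probe sets was 0.003.

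**Figure D1:**
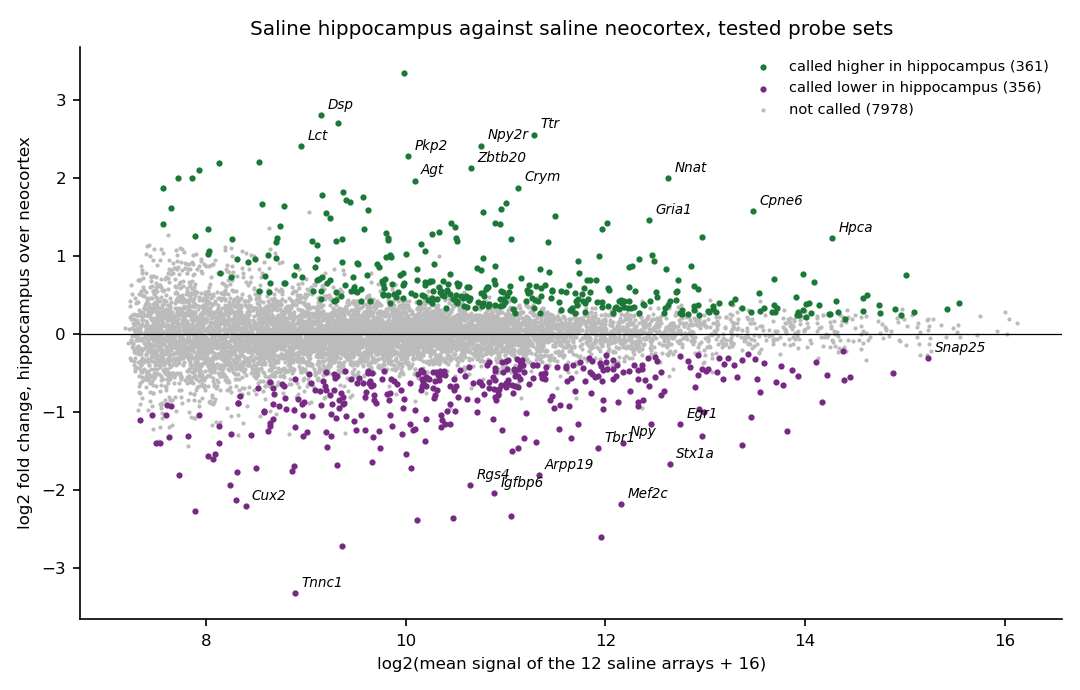
Log2 fold change, hippocampus over neocortex, of each of the 8695 tested probe sets (vertical axis) against the log2 of its mean signal over the 12 saline arrays (horizontal axis). Green points were called higher in the hippocampus (361), purple points lower (356), and grey points were not called. Dsp, Npy2r and Nnat lie far above 0 and Tnnc1 and Mef2c far below it.

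Of 15 genes of CA pyramidal neurons tested, 8 were higher in the hippocampus and 1 was lower, and their median log2 fold change was 0.87. Zbtb20, a transcription factor that specifies hippocampal projection neurons, had signals of 2257.6 to 3015.7 (median 2552) on the hippocampal arrays, against 484.0 to 805.2 (median 551.5) on the neocortical arrays. Its regions did not overlap, and it was 4.39-fold higher (log2 fold change 2.13 ± 0.12 SE, adjusted p = 7.58e-09). Cpne6, a calcium-dependent membrane-binding copine of neurons, was brighter still, at 15640.7 to 18978.7 (median 16959) in the hippocampus and 5182.6 to 6419.8 (median 5525) in the neocortex, a fold of 3.00 (adjusted p = 2.46e-09). Wfs1, an endoplasmic reticulum protein used as a marker of CA1 cells, measured 3569.4 to 4930.8 (median 4600.4) in the hippocampus and 1903.6 to 2577.6 (median 2326) in the neocortex. It was 1.92-fold higher (adjusted p = 4.72e-06). Hpca, the calcium sensor hippocalcin, had 19822.2 to 37638.9 (median 27565) in the hippocampus and 9829.0 to 12875.0 (median 11776) in the neocortex, a fold of 2.35 (adjusted p = 2.31e-05). Man1a, a mannosidase of the Golgi, was 2.56-fold higher (adjusted p = 0.0253), but 1 neocortical array stood at 74.4 below the rest, a dimmer probe set of the gene gave 0.40 on the log2 scale, and the call was missed on leaving out any of 3 arrays (hippocampal 3, 4 or 6, adjusted p up to 0.0526). The member called lower was Ptpn5, a phosphatase rich in the striatum and cortex, at a mean of 1697 ± 154.7 in the hippocampus and 2725 ± 164.9 in the neocortex (SD, n = 6 each).

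Dentate granule cell genes gave some of the largest differences of all, and of 14 tested members 6 were higher and 1 was lower (median 0.32). Dsp encodes desmoplakin, which anchors intermediate filaments to desmosomes, and Pkp2 encodes plakophilin of the same junctions. Dsp had 685.5 to 1241.9 (median 931.2) on the hippocampal arrays and 89.5 to 161.9 (median 120.9) on the neocortical arrays. The neocortical mean of Dsp lay under the filter level of 127.8, near which signal and background are hard to part, so its fold of 7.02 (log2 2.81 ± 0.19 SE, adjusted p = 4.62e-08) is uncertain in size. Pkp2 was above that level in both regions, at 1339.3 to 2297.6 (median 1577) in the hippocampus and 241.0 to 453.6 (median 330.4) in the neocortex, a fold of 4.85 (adjusted p = 1.43e-07). Both junction genes separated the regions completely. Lct, the intestinal lactase, measured 557.8 to 1221.7 (median 737.1) in the hippocampus, against 83.6 to 227.9 (median 146.1) in the neocortex, a fold of 5.32 (adjusted p = 2.87e-06). Tdo2, which starts the breakdown of tryptophan, was at 265.1 to 617.0 (median 406.9) in the hippocampus and 29.2 to 165.5 (median 95.6) in the neocortex (adjusted p = 0.000817), while another probe set of Tdo2 gave 0.43 and was not called. The neocortical mean of Tdo2 also lay under the filter level. Prox1, the transcription factor that defines granule cells, was dim and overlapped, with 189.3 to 416.0 (median 257.8) in the hippocampus and 22.1 to 197.3 (median 75.85) in the neocortex (adjusted p = 0.0213, and 0.0563 without hippocampal array 1). Il16, a cytokine precursor with a neuronal form, averaged 457.4 ± 91.13 in the hippocampus and 227.1 ± 51.96 in the neocortex (adjusted p = 0.00393), and Npnt, a matrix ligand of integrins, was the member called lower (1.54-fold, adjusted p = 0.0485), a call lost in 17 of 24 other settings. Calb1, the calbindin of granule cells and of some cortical neurons, did not pass the test, at 2429.6 ± 187.5 in the hippocampus and 2775 ± 162.5 in the neocortex.

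Upper-layer neocortical genes went the other way, with 5 of 12 tested members called lower in the hippocampus and 0 higher by limma (7 and 0 at an unadjusted p under 0.05). Their median log2 fold change was -0.62. Mef2c, a transcription factor of cortical projection neurons, measured 1252.1 to 2132.6 (median 1603) on hippocampal arrays and 6712.6 to 8869.1 (median 7331) on neocortical arrays, with no overlap. It was lower by 2.18 ± 0.12 SE on the log2 scale (4.53-fold, adjusted p = 3.14e-09). Cux2, the homeodomain protein that marks upper layers, had 40.0 to 263.8 (median 78.05) in the hippocampus and 462.2 to 618.3 (median 494.1) in the neocortex. Its hippocampal mean was under the filter level (adjusted p = 0.000457). Its relative Cux1 was 1.53-fold lower (adjusted p = 0.000269) and Kitl, the ligand of the receptor Kit, 1.54-fold lower (adjusted p = 0.0309, and up to 0.0776 on leaving out any of 9 of the 12 arrays). Kit itself, singled out after its values were seen, ran opposite to its ligand, at 1222 ± 395.8 in the hippocampus and 580 ± 61.37 in the neocortex (2.02-fold higher, adjusted p = 0.000443). Rasgrf2, another upper-layer marker, did not pass (140.2 ± 54.1 in the hippocampus, 280.8 ± 75.1 in the neocortex, adjusted p = 0.0726). The marker Rorb was not measured by a probe set with a single gene symbol.

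Deep-layer genes were divided, with 2 of 12 tested members higher, 4 lower and a median of -0.18. Tbr1, a transcription factor of deep-layer neurons, was 1479.6 to 2925.5 (median 1985) in the hippocampus and 4630.8 to 6545.9 (median 5891) in the neocortex, a log2 fold change of -1.46 ± 0.14 SE (adjusted p = 2.45e-06). Ccn2, a secreted matrix protein known in the deepest layer, averaged 481.1 ± 240.1 in the hippocampus and 1112 ± 158.5 in the neocortex (adjusted p = 0.00371). Foxp1, a forkhead factor, and Rprm, reprimo, were 1.71-fold and 1.72-fold lower (adjusted p = 0.0054 and 0.0124), and a second probe set of each was not called. Fezf2, which specifies neurons projecting below the cortex, did not pass, at 2192 ± 262.7 in the hippocampus and 2156 ± 353.8 in the neocortex (adjusted p = 0.917). Etv1, a defining marker of these layers, shared its probe set with another gene and was not analysed here. The 2 members called higher were Crym, a thyroid hormone-binding crystallin, and Bcl6, a transcriptional repressor. Crym had 2891.4 to 4866.1 (median 3320.3) in the hippocampus and 807.2 to 1058.9 (median 928) in the neocortex, a fold of 3.69 (adjusted p = 2.97e-08).

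**Figure D2:**
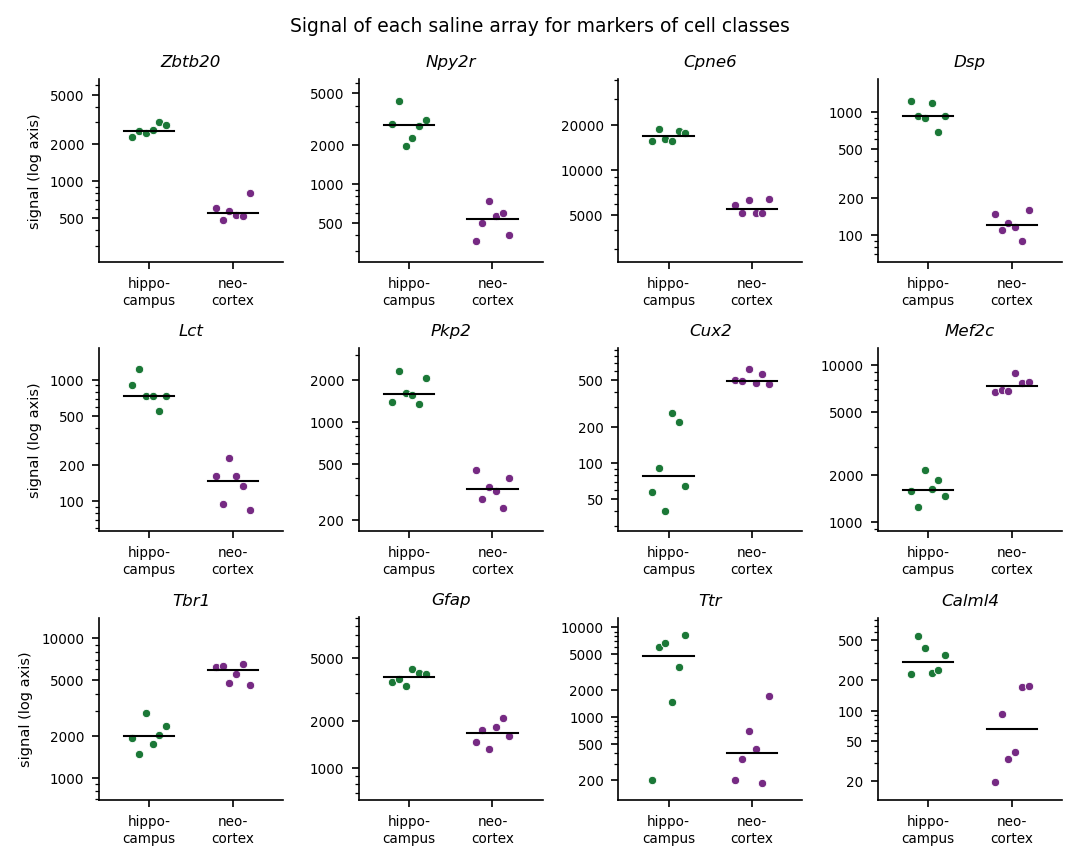
Signal (log axis) of each of the 6 hippocampal arrays (green, left) and 6 neocortical arrays (purple, right) for 12 markers, with a black line at the median. Zbtb20, Npy2r, Cpne6, Dsp, Lct, Pkp2, Gfap and Calml4 lie higher in the hippocampus without overlap, Cux2, Mef2c and Tbr1 lower without overlap, and Ttr spreads from 199.6 to 8214.8 among the hippocampal arrays.

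Transcription factors of forebrain patterning and neuronal identity were called often and in both directions, 8 higher and 8 lower of 38 tested (median 0.04). Neurod6, a basic helix-loop-helix factor of excitatory neurons, had 1059.2 to 1580.4 (median 1207) in the hippocampus and 290.1 to 698.8 (median 492.1) in the neocortex, 2.47-fold higher (adjusted p = 9.9e-05). Its relative Neurod2 was 1.72-fold higher (adjusted p = 0.000161). Several families were split. The LIM-only factor Lmo1 was 2.61-fold higher (2064 ± 340.3 in the hippocampus, 783.6 ± 140.2 in the neocortex) while Lmo4 was 1.72-fold lower (4424 ± 806.4 in the hippocampus, 7630.3 ± 1379 in the neocortex). Nuclear factor I genes parted likewise, with Nfib 1.55-fold higher and Nfic 1.49-fold lower. Of the inhibitors of helix-loop-helix factors, Id3 was 1.56-fold higher and Id2 1.49-fold lower. Rora, a retinoid-related receptor, averaged 398.7 ± 124 in the hippocampus and 834.3 ± 141.8 in the neocortex (adjusted p = 0.00142). Emx2 and Lhx2 were not analysed here.

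Of 27 astrocyte genes tested, 10 were higher in the hippocampus and 1 was lower (median 0.32). Gfap, the intermediate filament of astrocytes, had 3345.4 to 4273.0 (median 3818) in the hippocampus and 1332.3 to 2083.1 (median 1669.5) in the neocortex, with no overlap, and was 2.27-fold higher (adjusted p = 1.09e-06). A dimmer Gfap probe set gave 0.43 ± 0.15 SE and was not called. Agt, angiotensinogen, differed most, at 1252.1 to 1968.5 (median 1731) in the hippocampus and 223.3 to 765.4 (median 430.6) in the neocortex, a fold of 3.93 (adjusted p = 4.71e-05). Aqp4, the water channel of astrocyte end-feet, was 1.55-fold higher and Fabp7, a fatty acid-binding protein of radial glia and astrocytes, 1.77-fold higher (adjusted p = 0.00324 and 0.00204). Slc1a2, the main glutamate transporter, did not pass, at 821.5 ± 427 in the hippocampus and 873 ± 308.5 in the neocortex (adjusted p = 0.819). Dio2, which activates thyroid hormone, was the member called lower (1.43-fold, adjusted p = 0.00142). The summed signal of the 28 measured astrocyte genes was 248841 to 261258 on the hippocampal arrays and 194191 to 220099.9 on the neocortical ones. Bright members weigh most in it, such as Apoe (means 48623 in the hippocampus, 38988 in the neocortex) and Cst3 (30952 and 23726).

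Myelin genes had 4 of 18 tested members higher and 0 lower by limma (10 and 1 at an unadjusted p under 0.05, median 0.32). Cldn11, the tight-junction claudin of myelin, averaged 3899 ± 381.9 in the hippocampus and 2684 ± 196.6 in the neocortex (adjusted p = 0.000457), and Mobp, a myelin structural protein, was 1.40-fold higher (adjusted p = 0.00183), although 3 other Mobp probe sets were not called. Mbp and Mog, a core and a surface protein of myelin, did not pass (adjusted p = 0.113 and 0.186). Of 18 microglial genes tested, limma called 0, with 0 at an unadjusted p under 0.05 and a median of 0.03. Csf1r, the receptor microglia depend on, was at 2314 ± 225 in the hippocampus and 2110.1 ± 341.3 in the neocortex (adjusted p = 0.529). Vascular genes had 2 higher and 1 lower of 24, with the endothelial claudin Cldn5 at 1891 ± 253.1 in the hippocampus and 2012 ± 200.9 in the neocortex (adjusted p = 0.682). Cd34, a sialomucin of endothelium, was the member called lower (1.76-fold, adjusted p = 0.00456).

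**Figure D3:**
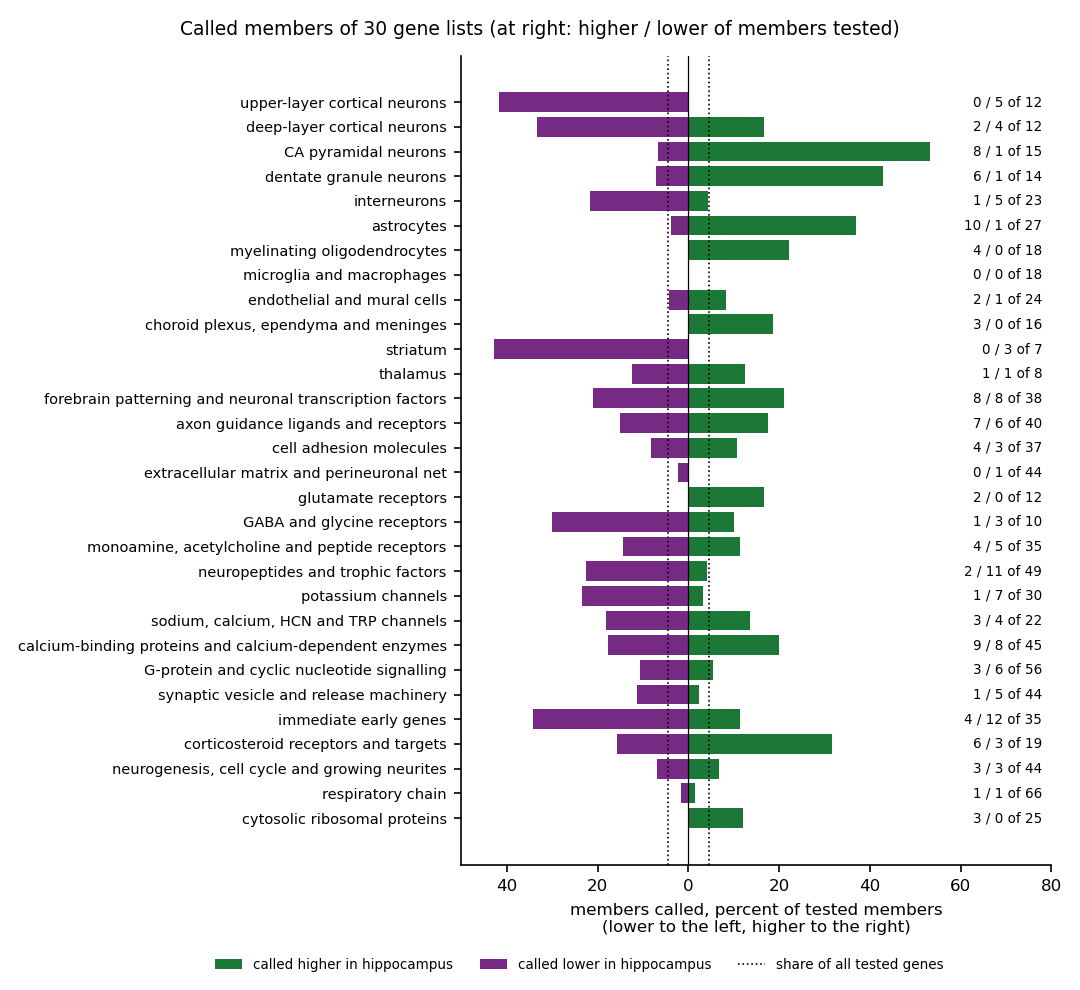
Percent of the tested members of each of 30 gene lists that were called higher (green, right of 0) or lower (purple, left of 0) in the hippocampus, with the counts at the right and dotted lines at the share of all tested genes called in each direction (4.48% and 4.42%). CA pyramidal, dentate granule and astrocyte genes extend to the right, and upper-layer, neuropeptide and immediate early genes to the left.

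Markers of tissue next to the dissections also differed, and their part in the other results was not tested. Ttr, the transthyretin that choroid plexus secretes in very large amounts, was 199.6, 6053.7, 6697.3, 1472.0, 3577.7 and 8214.8 on hippocampal arrays 1 to 6, against 185.8 to 1719.8 (median 394.5) on the neocortical arrays. Hippocampal arrays 2, 3, 5 and 6 lay above every neocortical array, and array 1 lay near the lowest. The 5.91-fold difference (adjusted p = 0.0397) was no longer called on leaving out any of 9 arrays, among them each of those 4 (adjusted p up to 0.0955). Calml4, a calmodulin-like gene of choroid and ependyma, was 4.01-fold higher (229.5 to 549.1 in the hippocampus, 19.8 to 176.6 in the neocortex, adjusted p = 0.00556), a fold of uncertain size because the neocortical mean of 88.82 lay under the filter level. Kl, the co-receptor klotho, was left out of the test by the filter but did not overlap, at 258.5 to 553.2 in the hippocampus and 11.7 to 34.5 in the neocortex. Decorin, Dcn, a proteoglycan of meningeal fibroblasts that some neurons may also make, was 3.05-fold higher without overlap (2203.3 to 3679.3 in the hippocampus, 801.9 to 1357.0 in the neocortex). Foxj1, of ciliated ependymal cells, did not pass (adjusted p = 0.411), and the summed signal of the 20 measured choroid, ependymal and meningeal genes overlapped, at 35653 to 60978 in the hippocampus and 41940.4 to 56975 in the neocortex. Of 16 tested members, 3 were called, all higher (18.8%, against 4.48% of all genes called higher). By limma, 5 were higher and 0 lower at an unadjusted p under 0.05. Without the 4 hippocampal arrays of high Ttr, which leaves 2 arrays against 6, 312 probe sets were called. Of the 710 original calls still tested, 286 were kept and 0 turned sign, in arrays that had also made those calls.

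The striatal list had 0 of 7 tested members higher and 3 lower by limma (0 and 4 at an unadjusted p under 0.05), namely Penk, Tac1 and Foxp1, which neocortical neurons also express. Its summed signal over 11 measured genes was 6633 to 8392 in the hippocampus and 9081 to 14705 in the neocortex. Penk is a large part of that sum, at 1796 ± 376.2 in the hippocampus and 4632 ± 1374 in the neocortex. The defining striatal gene Rgs9 was dim in both regions, with means of 85.8 in the hippocampus and 82.82 in the neocortex, under the filter level, and the dopamine and adenosine receptors Drd1 and Adora2a were not analysed here. The thalamic list had 1 higher (Prkcd, a protein kinase C, 1.55-fold) and 1 lower (Ramp3, a receptor-modifying protein, 2.07-fold) of 8 tested, and Tcf7l2 did not pass (adjusted p = 0.25).

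Among interneuron genes, 1 was higher and 5 were lower of 23 tested (median -0.18), and the genes of the shared GABA machinery were not called. Gad1, which makes GABA, was at 6658 ± 570.9 in the hippocampus and 7041 ± 814.2 in the neocortex (adjusted p = 0.694), and Slc32a1, the vesicular GABA transporter, at 4661 ± 468.3 in the hippocampus and 5342 ± 732.3 in the neocortex (adjusted p = 0.299). Gad2, the other GABA-making enzyme, was dimmer, at 325.3 ± 80.85 in the hippocampus and 472.5 ± 159.1 in the neocortex (log2 fold change -0.48 ± 0.23 SE, adjusted p = 0.256). Npy, neuropeptide Y, had 2135.3 to 2884.1 (median 2579) in the hippocampus and 6222.3 to 7255.2 (median 6627) in the neocortex, 2.63-fold lower with no overlap (adjusted p = 7.58e-09). Vip was 2.20-fold lower, Tac1 1.72-fold lower and Pvalb, parvalbumin, 1.41-fold lower (adjusted p = 0.00554, 0.0205 and 0.000832), and Tac1 missed its call without neocortical array 3 or 4 (limma's adjusted p = 0.053 without array 3 and 0.0502 without array 4). Calb2, calretinin, was the member called higher, at 2019 ± 234.4 in the hippocampus and 841.7 ± 85.65 in the neocortex (adjusted p = 5.57e-07). Somatostatin, Sst, was nearly equal, at 10669.9 ± 1305 in the hippocampus and 10856 ± 1119 in the neocortex (log2 fold change -0.03 ± 0.09 SE).

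Neuropeptides and trophic factors as a group had 11 of 49 tested members lower and 2 higher (median -0.12). Penk, proenkephalin, was 1275.1 to 2391.2 (median 1756) in the hippocampus and 2619.7 to 6020.1 (median 4704) in the neocortex, 2.51-fold lower (adjusted p = 0.000158), but a second Penk probe set gave -0.03 ± 0.29 SE. Adcyap1, the peptide PACAP, was 2.45-fold lower (adjusted p = 0.00818), Fgf12, an intracellular fibroblast growth factor homologue, 2.36-fold lower, and Igfbp6, an insulin-like growth factor binding protein, 4.13-fold lower (314.7 to 1389.8 in the hippocampus, 2549.2 to 3251.2 in the neocortex, adjusted p = 2.87e-05). Tgfb2, a transforming growth factor, was 2.63-fold higher (599.1 ± 66.19 in the hippocampus, 223.9 ± 64.36 in the neocortex), and Mdk, midkine, 1.56-fold higher. Cck was abundant and equal within its spread (24835 ± 1229.5 in the hippocampus, 26088 ± 2605 in the neocortex, adjusted p = 0.668), as was Bdnf (adjusted p = 0.995).

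Several receptors of these peptides were called. Npy2r, a receptor of neuropeptide Y, had 1976.2 to 4358.8 (median 2845) in the hippocampus and 363.7 to 741.0 (median 532) in the neocortex, 5.36-fold higher with no overlap (adjusted p = 2.35e-07), where Npy itself was lower. Npy1r, the other receptor measured above the filter, was at 405.7 ± 116.4 in the hippocampus and 398.6 ± 78.86 in the neocortex (adjusted p = 0.988). Cckbr, the cholecystokinin receptor of the brain, was 2.61-fold lower (1383 ± 148.9 in the hippocampus, 3656 ± 581.6 in the neocortex, adjusted p = 3.94e-07). Sstr2, a somatostatin receptor, was 1.96-fold lower (adjusted p = 0.000541). A dimmer Sstr2 probe set was also called lower (log2 fold change -0.74, limma's adjusted p = 0.00405), and another was not called. Crhr1, the corticotropin-releasing hormone receptor, was 2.37-fold lower (adjusted p = 2.79e-05). Of monoamine receptors, the serotonin receptor Htr5b was 1.84-fold higher and the adrenergic receptor Adra2c 1.40-fold higher, while Adra1b and the histamine receptor Hrh1 were 2.64-fold and 1.84-fold lower. Hrh1 lost its call on leaving out any of 11 arrays (adjusted p up to 0.113). In all, 4 of 35 tested members were higher and 5 lower.

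Among receptors of fast transmitters, the AMPA receptor subunits Gria1 and Gria2 were higher and 3 genes of the GABA and glycine receptor list lower. Gria1 had 6963.9 to 9630.7 (median 7953) in the hippocampus and 2646.7 to 3523.6 (median 2885) in the neocortex, 2.74-fold higher with no overlap (adjusted p = 5.64e-08). Gria2, the subunit that makes the channel impermeable to calcium, was 1.23-fold higher (adjusted p = 0.0227, and up to 0.0598 without neocortical array 3, 4 or 5), with a dimmer probe set not called. The other AMPA subunits had values below 0 and did not pass, Gria3 with a log2 fold change of -0.43 ± 0.16 SE and Gria4, singled out after its values were seen, with -1.13 ± 0.39 SE (adjusted p = 0.0848). The NMDA subunit Grin2b did not pass (-0.26 ± 0.15 SE). Cnih2, cornichon, an auxiliary AMPA receptor subunit singled out after its values were seen, was 2.37-fold higher (11263 ± 1212 in the hippocampus, 4771 ± 813.5 in the neocortex), while Cacng2, the auxiliary subunit stargazin, was 1.50-fold lower (adjusted p = 0.0245, and up to 0.0587 on leaving out any of 4 arrays). Gabrd, the delta subunit of GABA-A receptors outside synapses, was 80.8 to 273.1 (median 229.8) in the hippocampus and 560.1 to 836.4 (median 690.2) in the neocortex, 3.22-fold lower (adjusted p = 0.00016). Gabra3 was 3.30-fold lower with overlapping arrays (adjusted p = 0.00813), and Gabrb1 was 1.47-fold higher where Gabrb2 was 1.64-fold lower (adjusted p = 0.0359, and up to 0.0844 on leaving out any of 7 arrays). Glutamate receptors had 2 of 12 tested members higher and 0 lower by limma (2 and 3 at an unadjusted p under 0.05), and GABA and glycine receptors 1 higher and 3 lower of 10.

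Axon guidance genes were called in 13 of 40 tested members, 7 higher and 6 lower. Nrp1, the receptor neuropilin of secreted semaphorins, had 3139.6 to 5185.2 (median 4233) in the hippocampus and 1259.3 to 1859.5 (median 1440.0) in the neocortex, 2.86-fold higher (adjusted p = 3.94e-07). Its ligand Sema3a was 3.51-fold lower, with a hippocampal mean of 86.7 under the filter level (neocortical mean 305.7, adjusted p = 0.00363). Sema3e was 2.27-fold higher (851.4 ± 169.5 in the hippocampus, 373.9 ± 113.7 in the neocortex), and its receptor Plxnd1 was 2.34-fold lower (631.9 ± 116.8 in the hippocampus, 1485 ± 148.6 in the neocortex, adjusted p = 6.07e-06). Of the ephrin receptors tested, Epha7, Epha6 and Epha5 were 2.48-fold, 2.21-fold and 1.43-fold higher, and Ephb6 and Ephb3 were 1.92-fold and 1.86-fold lower, although second probe sets of Epha5 and Ephb6 were not called. Efnb3, a B-class ephrin ligand, was 1.99-fold higher (5206 ± 555.8 in the hippocampus, 2601 ± 229.3 in the neocortex). Adhesion molecules beyond the desmosomal genes included Cntn4, a contactin (lower, hippocampal mean 76.63 under the filter level, neocortical mean 365.5), and Pcdh7, a protocadherin, 3.82-fold lower with overlap (adjusted p = 0.00372). The fold of Pcdh7 is uncertain in size, since its hippocampal median of 75.15 lay under the filter level. Another Pcdh7 probe set was too dim to be tested (means 48.62 in the hippocampus, 38.45 in the neocortex). In total 4 of 37 adhesion genes were higher and 3 lower, and 1 of 44 extracellular matrix genes was called (Col5a1, 1.44-fold lower).

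**Figure D4:**
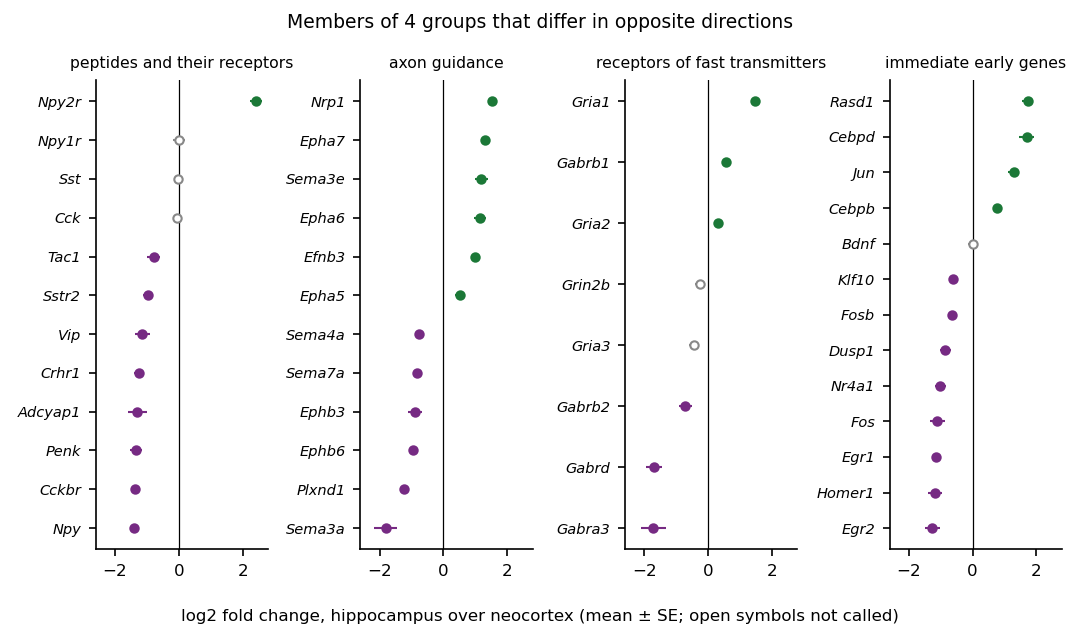
Log2 fold change, hippocampus over neocortex, with its SE (bars) for members of 4 groups. Filled green points were called higher, filled purple points lower, and open points were not called. Npy2r lies at 2.42 where Npy lies at -1.39, Nrp1 at 1.51 where Sema3a lies at -1.81, Gria1 at 1.46 where Gabra3 lies at -1.72, and Jun at 1.29 where Fos lies at -1.10.

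Potassium channel genes were lower where they differed, 7 of 30 tested against 1 higher (median -0.34). Kcnh1, an ether-a-go-go channel, was 3.39-fold lower with overlapping arrays (adjusted p = 0.00215). Kcnab3, an auxiliary subunit, was 2.06-fold lower (580.9 ± 102.6 in the hippocampus, 1223 ± 275.7 in the neocortex), and its relative Kcnab2 was the member called higher (1.62-fold, adjusted p = 0.000139). Kcnj9, a G protein-gated channel, was 1.99-fold lower, with a second probe set at -0.21 not called. Sodium, calcium, HCN and TRP channel genes had 3 higher and 4 lower of 22 tested, and across 24 other settings the lower count was 0 to 5. Trpc4, a cation channel, and the ryanodine receptors Ryr3 and Ryr1 were 2.36-fold, 2.24-fold and 1.68-fold higher, and the calcium channel genes Cacna1a and Cacna2d1 and the sodium channel gene Scn1a were 1.62-fold, 1.58-fold and 1.50-fold lower with overlapping arrays. A dimmer Scn1a probe set was lower without overlap (550.4 to 901.7 in the hippocampus, 1046.5 to 1457.9 in the neocortex, limma's adjusted p = 0.000329). Without 1 array, Cacna1a and Cacna2d1 reached adjusted p of 0.063 (4 arrays) and 0.0845 (8 arrays). Calcium-binding proteins and enzymes gave 9 higher and 8 lower of 45. Camk2b, a kinase of the postsynaptic density, was 1.59-fold higher, Camk4, a nuclear calcium-calmodulin kinase, 2.13-fold lower, and Nrgn, neurogranin, 1.44-fold lower. The largest difference of the list was Tnnc1, troponin C of slow and cardiac muscle, with 28.6 to 157.5 (median 62.75) in the hippocampus and 598.1 to 1108.7 (median 793.8) in the neocortex. Its hippocampal mean of 80.88 lay under the filter level, so the 9.98-fold value is uncertain in size (adjusted p = 4.66e-06).

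Of the release machinery, 5 of 44 tested members were lower and 1 higher. Stx1a, syntaxin of the presynaptic membrane, had 2801.1 to 3391.8 (median 2938) in the hippocampus and 8382.4 to 11117.0 (median 9536) in the neocortex, 3.18-fold lower with tight replicates (adjusted p = 2.46e-09). Its partner Snap25 was only 1.24-fold lower (34511 ± 2187 in the hippocampus, 42761 ± 1389 in the neocortex, adjusted p = 0.00209), and Cplx1, complexin, 1.50-fold lower. Doc2b, a calcium sensor of spontaneous release, was the member called higher, at 624.6 to 1223.7 (median 1091) in the hippocampus and 82.3 to 434.9 (median 345.8) in the neocortex (3.52-fold, adjusted p = 0.00116). In G-protein signalling, Rgs4, an inhibitor of G-protein signals, was 3.83-fold lower (418.8 to 1013.3 in the hippocampus, 2222.8 to 2812.4 in the neocortex), Rgs6 2.95-fold lower with overlap, and Rgs14, rich in CA2 cells, 1.83-fold higher, in a list with 3 higher and 6 lower of 56. Arpp19, a cyclic AMP-regulated phosphoprotein, was 3.51-fold lower (1139 ± 297.4 in the hippocampus, 3978 ± 607.4 in the neocortex, adjusted p = 4.06e-07). The postsynaptic scaffolds of the Homer family parted, Homer3 being 3.39-fold higher (675.9 to 1603.0 in the hippocampus, 87.1 to 544.8 in the neocortex, adjusted p = 0.00187) and Homer1 2.27-fold lower (adjusted p = 0.00145).

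Immediate early genes are switched on within minutes of synaptic activity, largely through the cyclic AMP-responsive factor CREB and serum response factor. In mice 1 week past their injections, 12 of 35 tested members were lower in the hippocampus and 4 higher (median -0.29). Egr1 had 3673.5 to 4739.1 (median 4333) in the hippocampus and 7854.4 to 10798.9 (median 9413) in the neocortex, 2.21-fold lower with no overlap (adjusted p = 1.71e-07). Fos had 459.9 to 1220.4 (median 837) in the hippocampus and 1154.5 to 2164.4 (median 1869) in the neocortex, 2.14-fold lower with a slight overlap (adjusted p = 0.00316). Egr2 was 2.40-fold lower (adjusted p = 0.00136). Fosb, Nr4a1 and Dusp1, singled out after their values were seen, were 1.55-fold, 2.01-fold and 1.81-fold lower without overlap. Nr4a1, an orphan nuclear receptor, measured 1123.4 to 2094.2 (median 1541) in the hippocampus and 2213.2 to 4045.8 (median 3165) in the neocortex (adjusted p = 0.000726), and Dusp1, a phosphatase of MAP kinases, 819.1 to 1551.0 (median 1188) in the hippocampus and 1567.7 to 2986.8 (median 2159.6) in the neocortex (adjusted p = 0.0023). The AP-1 partner Jun was opposed to Fos, at 1567.3 to 1853.6 (median 1698) in the hippocampus and 484.6 to 1104.7 (median 604.1) in the neocortex, 2.45-fold higher (adjusted p = 5.9e-05). Rasd1, a Ras-like protein induced by dexamethasone, was 3.29-fold higher (873.7 to 1110.9 in the hippocampus, 175.8 to 410.8 in the neocortex), Cebpd 3.23-fold higher and Cebpb 1.69-fold higher. Arc was not measured by a probe set with a single symbol.

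The promoters of 4 immediate early genes that were lower in the hippocampus are shown because they carry the core of the cyclic AMP response element, TGACG, searched on both strands (CGTCA on the other). Each window runs from 250 bases before to 50 after the gene's start (RefSeq, GRCm38.p6), and matches are in capitals. They are Fos on the plus strand of chr12:85473640-85473939, Fosb on the minus strand of chr7:19309996-19310295, Nr4a1 on the plus strand of chr15:101266596-101266895 and Dusp1 on the minus strand of chr17:26508423-26508722. In Dusp1 a match on each strand overlap, which spells the full palindrome TGACGTCA. The set was chosen after the values and matches were seen.
Fos: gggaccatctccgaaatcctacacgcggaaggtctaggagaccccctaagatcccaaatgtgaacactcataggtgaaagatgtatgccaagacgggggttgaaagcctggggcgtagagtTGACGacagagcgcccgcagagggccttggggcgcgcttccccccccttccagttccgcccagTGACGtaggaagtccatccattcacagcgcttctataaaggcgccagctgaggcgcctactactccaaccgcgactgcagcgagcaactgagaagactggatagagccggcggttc
Fosb: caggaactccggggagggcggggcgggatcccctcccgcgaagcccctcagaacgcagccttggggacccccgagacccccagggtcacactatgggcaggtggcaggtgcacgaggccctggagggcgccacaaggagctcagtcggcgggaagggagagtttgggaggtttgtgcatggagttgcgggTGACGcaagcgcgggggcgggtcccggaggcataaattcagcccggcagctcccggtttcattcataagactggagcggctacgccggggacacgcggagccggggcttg
Nr4a1: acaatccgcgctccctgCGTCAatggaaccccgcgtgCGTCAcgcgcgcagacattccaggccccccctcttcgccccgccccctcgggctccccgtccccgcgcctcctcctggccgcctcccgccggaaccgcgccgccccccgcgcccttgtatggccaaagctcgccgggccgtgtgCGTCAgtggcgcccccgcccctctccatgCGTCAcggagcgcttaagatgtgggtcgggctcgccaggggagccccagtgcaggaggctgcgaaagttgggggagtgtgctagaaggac
Dusp1: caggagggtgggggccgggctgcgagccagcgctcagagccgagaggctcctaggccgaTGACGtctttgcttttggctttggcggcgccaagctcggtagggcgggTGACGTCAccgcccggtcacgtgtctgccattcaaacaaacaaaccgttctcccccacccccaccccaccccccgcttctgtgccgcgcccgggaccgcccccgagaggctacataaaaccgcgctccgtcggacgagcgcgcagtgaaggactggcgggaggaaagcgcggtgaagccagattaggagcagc
The core was found in 20.8% of all 32851 windows. The other shares count genes, with a match in any window of the gene, and so are not comparable with that one. The core was in 36% of 5179 tested genes with a window, 29.5% of 234 called higher and 39.5% of 238 called lower. Of the immediate early genes, 6 of 8 called lower with a window and 1 of 2 called higher with a window held it. A match describes these letters and says nothing of binding in either region.

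Receptors and targets of corticosteroids, stress hormones whose receptors hippocampal neurons make in abundance, had 6 of 19 tested members higher and 3 lower (median 0.14). Fkbp5, a co-chaperone of the glucocorticoid receptor, was 2046.0 to 3041.2 (median 2521) in the hippocampus and 1396.8 to 1835.1 (median 1651) in the neocortex, 1.53-fold higher with no overlap (adjusted p = 0.000678). Ddit4, a growth inhibitor, was 1.83-fold higher (adjusted p = 0.00553). Cdkn1a, the cell-cycle inhibitor p21, was lower by 1.64 on the log2 scale (131.1 to 555.7 in the hippocampus, 1043.2 to 1372.2 in the neocortex, adjusted p = 0.00035). The glucocorticoid receptor Nr3c1 was dim, and its call was missed although the arrays did not overlap (164.6 ± 82.04 in the hippocampus, 335.2 ± 55.49 in the neocortex, adjusted p = 0.0722). Nr3c1 was called lower in the hippocampus with all 34 arrays (limma's adjusted p = 0.0158). The same held with a pseudocount of 64 (0.0442) and without hippocampal array 2 (0.0444). Nr3c2, the mineralocorticoid receptor, was not measured by a probe set with a single symbol. Genes of neurogenesis and cell division had 3 higher and 3 lower of 44, with a median near 0, although the dentate gyrus makes neurons into adult life. Doublecortin, Dcx, averaged 695.4 ± 199.5 in the hippocampus and 737.7 ± 134.5 in the neocortex (adjusted p = 0.8), and Mki67, of dividing cells, 258.5 ± 52.67 in the hippocampus and 214.8 ± 56.78 in the neocortex (adjusted p = 0.568). Nnat, neuronatin, an imprinted gene of developing brain, was 3.99-fold higher (7939.3 to 11652.9 in the hippocampus, 1602.2 to 3262.6 in the neocortex, adjusted p = 1.07e-07), and Stmn1, stathmin, which destabilises microtubules, was 1.83-fold lower (13055 ± 1307 in the hippocampus, 23902 ± 1630.1 in the neocortex, adjusted p = 5.26e-07).

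The summed signals of both housekeeping groups, respiratory chain and ribosomal protein genes, did not overlap between the regions. Of 66 tested respiratory chain genes, 1 was higher and 1 lower by limma, a share under that of all genes (11 and 1 at an unadjusted p under 0.05). Their summed signal was 424574 to 468083 in the hippocampus and 408385 to 420465 in the neocortex. The lower one was Cox6a2, the heart and muscle form of a cytochrome oxidase subunit, at 640.6 ± 95.61 in the hippocampus and 1510.1 ± 260.4 in the neocortex (2.32-fold, adjusted p = 1.13e-05). Cytosolic ribosomal protein genes had 3 of 25 called (12%, against 8.91% of all genes), all higher by at most 1.23-fold (median 0.18). Across 24 other settings the higher count was 0 to 7. By limma, 15 were higher and 0 lower at an unadjusted p under 0.05. Their summed signal was 318212 to 344589 in the hippocampus and 272091 to 304346 in the neocortex.

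The remaining genes at the extremes belong to no list above. Higher were Nt5dc2, a nucleotidase-like protein (3.44-fold, adjusted p = 0.00018), Myo5b, a myosin motor that carries recycling endosomes into spines (3.20-fold, 3103 ± 470.4 in the hippocampus, 966.9 ± 191.2 in the neocortex, with a dimmer probe set not called), and Cidea, a lipid droplet protein of brown fat (3.18-fold, adjusted p = 0.00119). Lower were Krt12, a keratin known from the cornea (330.1 to 660.3 in the hippocampus, 1414.9 to 1780.3 in the neocortex, 3.28-fold, adjusted p = 4.22e-07), Gcnt2, a glycan-branching enzyme (3.03-fold), and Cd7, a T-cell surface protein (2.92-fold with overlap). The hippocampal median of Cd7, 120.9, lay under the filter level, so its fold is uncertain in size. A probe set annotated to the T-cell receptor gene Trbv1 was 5.21-fold lower without overlap (104.7 to 553.3 in the hippocampus, 1631.0 to 2136.9 in the neocortex, adjusted p = 1.6e-05). Another Trbv1 probe set was dim in both regions (means 29.88 in the hippocampus, 32.33 in the neocortex) and was left out by the filter. Which transcript the brighter probe set binds in brain was not tested.

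The same contrast in mice given nicotine or kainate shares no arrays with the saline contrast. It called 784 probe sets in nicotine mice (9.02%) and 938 in kainate mice (10.8%), against 717 in saline mice. Of the 717 saline calls, 711 were tested in nicotine mice, where 703 had the same sign and 484 were called the same way (of the 784 called there), and 713 in kainate mice, where 691 had the same sign and 414 were called the same way (of the 938). The median log2 fold change of the higher calls was 0.46 in nicotine mice and 0.44 in kainate mice, against 0.55 in saline mice, and of the lower calls -0.59 and -0.60 against -0.68. The saline values chose these calls, so smaller values in mice that did not choose them are no measure of a drug effect. The 30 genes at the extremes kept their sign in every drug group in which they were tested (29 in nicotine mice, 30 in kainate mice), and 26 and 27 of them were called there. Tested directly by limma, no change of a regional difference was called with nicotine (0 of 8695, 328 at an unadjusted p under 0.05). With kainate 69 changes were called (0.794%), 15 of them among the 717 saline calls. A regional difference without such a call may still have changed.

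**Figure D5:**
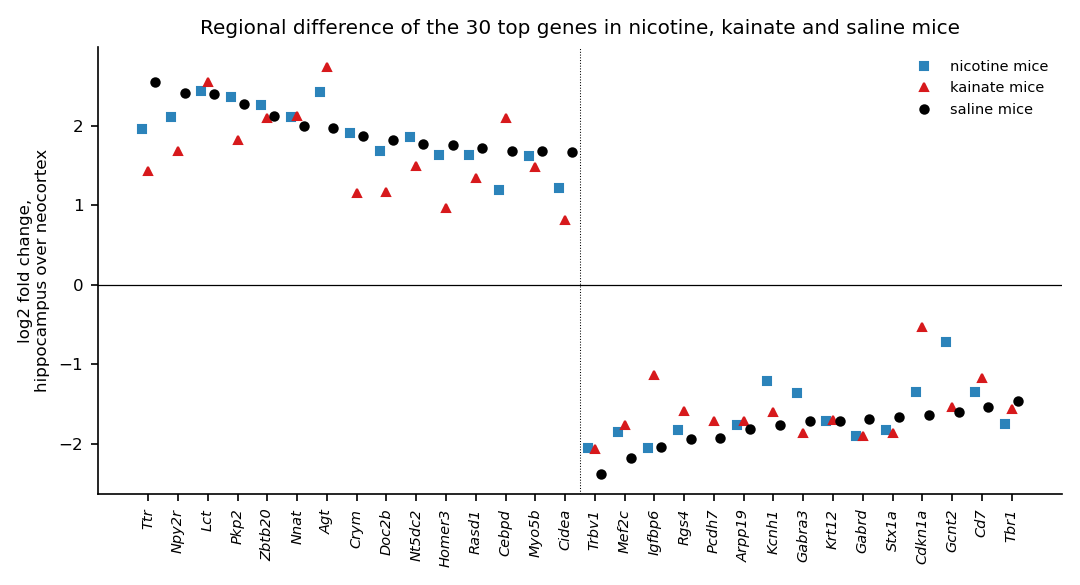
Log2 fold change, hippocampus over neocortex, of the 15 highest and 15 lowest named genes in nicotine mice (blue squares), kainate mice (red triangles) and saline mice (black circles). Every symbol of the first 15 genes lies above 0 and of the last 15 below it, and Pcdh7 has no nicotine value because it was not tested there.

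Among the genes named by the rule given below, 5 had a regional difference that differed between kainate and saline mice. Wfs1 was almost level in kainate mice, at 3393 ± 386.3 in the hippocampus and 3241 ± 300.5 in the neocortex (SD, n = 5 each), so that its log2 regional difference was 0.06 in kainate mice and 0.94 in saline mice (interaction -0.88, adjusted p = 0.00109). Cpne6 kept most of its difference, 1.06 in kainate mice and 1.58 in saline mice (interaction -0.52, adjusted p = 0.0216). Gfap differed more, at 2.34 in kainate mice and 1.18 in saline mice, with 17939 ± 2092 in the kainate hippocampus and 3594 ± 914.5 in the kainate neocortex (interaction adjusted p = 4.35e-05). The microglial genes C1qa and Csf1r, which were not called between the saline regions, differed by 1.71 and 1.13 in kainate mice (adjusted p of the interactions 1.09e-08 and 0.0012). Genes named beyond that rule with such a change include Apoe, at 0.91 in kainate mice and 0.32 in saline mice (limma interaction 0.60, adjusted p = 0.0012).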

How the data were processed

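The study holds 34 arrays of hippocampus and neocortex, 12 of them saline. TRIzol-extracted RNA, 12 µg a sample, was labelled with biotin as cRNA, per the labels' protocols. The deposited file holds linear intensities that the authors computed with MAS5, per the submitters' processing notes. MAS5 summarises each probe set as a single signal, and each array was scaled to a 2% trimmed mean of 1000.5 to 1000.6, so differences are relative to that scale. Detection calls were not used, so dim values could be judged only by level.

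Of 12488 probe sets, 66 controls were dropped. Of the other 12422, 10833 have 1 gene symbol in the platform annotation, 396 several and 1193 none, and symbols were updated by Entrez identifier for 10817. Values were taken as log2(signal + 16), which understates changes of dim genes, and the lowest 30% by mean were left out (8695 tested, mean level at or above a signal of 127.8). limma 3.58.1 in R 4.3.3 (lmFit, eBayes with intensity trend) was fitted to the 12 saline arrays, with Benjamini-Hochberg adjustment over all tested probe sets and a call at an adjusted p under 0.05. Fits to 12 nicotine and 10 kainate arrays and an interaction over all 34 were made likewise. Both regions came from the same mice, per the series design, but which arrays are from 1 mouse is not given in the labels. Same-numbered arrays did not deviate together (correlations -0.138 to 0.152), so no block was used. Precision is limited by the number of arrays, and the median SE was 0.160 (log2). A gene with several probe sets is given by its brightest. Errors are SD over arrays or SE of the log2 fold change.

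The comparison, its 30 gene lists (903 members measured) and the naming rule were chosen with earlier results of these data known. Named genes are the 15 highest and 15 lowest log2 fold changes among called brightest probe sets above the filter level in both regions, up to 6 called members per list with its defining markers, and other probe sets of these genes where they disagree. Genes named beyond that rule, such as Kit, Cnih2, Sst, Cck, Npy1r, Fosb, Nr4a1, Dusp1, Calb1, Gria3, Grin2b, Bdnf, second members of a family and smaller list members, were chosen after their values were seen. The fit was tested on simulated arrays with the spread of these arrays. It called 26% of true log2 differences of 0.5, 84% of 1, 75.6% of -1 and 100% of 2. Of probe sets simulated without a difference it called 0.141%. A gene that was not called may therefore still differ. Alternatives were another pseudocount, filter or scaling, quantile normalization, array weights, no trend, all 34 arrays, a replicate block and leaving out each array. Plots were made in matplotlib 3.10.9 under Python 3.11.15.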

Additional observations from a re-analysis of the deposited data

Results flagged for a closer look

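In 14 of 310 groups of 6 arrays examined for the named genes, 1 array stood apart from the other 5 by a gap test at the 95% level, and chance flags about 1 in 20 groups. In the hippocampus the highest array stood apart for Crym (4866.1), Cidea (756.0), Cntn4 (222.6), Gbx2 (151.0) and Stmn1 (15519.3), and the lowest for Gabrd (80.8), Cux1 (1111.2), C1qa (2645.8) and Hrh1 (93.0). In the neocortex the highest array stood apart for Ttr (1719.8), Itgav (5635.3), Rgs14 (4265.9) and Rpl7a (7281.4), and the lowest for Man1a (74.4).

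The regional difference of 5 genes named by the rule differed between kainate and saline mice by the interaction test. The kainate value minus the saline value on the log2 scale was -0.88 for Wfs1 and -0.52 for Cpne6, and 1.16 for Gfap, 0.99 for Csf1r and 1.65 for C1qa.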

How the results depend on the processing

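Across 22 other settings the number of called probe sets was 610 to 917, and none of the 717 calls that was tested in a setting turned sign there. These settings share arrays with the main fit, so a kept sign is no independent support. Leaving out 1 array gave 610 to 736 calls, 303 to 379 of them higher and 304 to 366 lower in the hippocampus. A replicate block by array number gave 614 calls (295 higher, 319 lower), and only 2 of 6 numbers correlated best with their own, which leaves unknown which arrays share a mouse. All 34 arrays gave 917 calls. A block for clusters of control probe sets could not be fitted, because 1 cluster held hippocampal arrays only. Of 132 named called genes, 110 stayed called under all 22 settings. Ttr was not called with all 34 arrays (adjusted p = 0.102), without the filter (0.0534) or without the trend (0.0939).

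Added after seeing the data, and with fewer samples, leaving out hippocampal arrays 2, 5 and 6 gave 419 calls (178 higher, 241 lower), and leaving out the 4 arrays of high Ttr gave 312 (115 higher, 197 lower). Uncalled genes near 0 changed sign: Fezf2 was -0.02, -0.01 and -0.00 without hippocampal array 2, hippocampal array 4 or neocortical array 3 (-0.02 to 0.11 over all 12 arrays left out in turn) and -0.02 without arrays 2, 5 and 6. C1qa was -0.01 without those 3 and -0.05 without the 4 of high Ttr. Dcx was 0.01 without hippocampal array 6 (-0.21 to 0.01 over the 12), and 0.03 and 0.19 in those 2 settings. The cause was not tested. The kainate interaction gave 72 calls with a pseudocount of 64 and 47 with median centring.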

Other observations

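Several genes best known from striated muscle were lower in the hippocampus beside Tnnc1 and Cox6a2. They were noticed in the results, and a list drawn up afterwards by gene family (troponins, myosin chains, actins and actinins, muscle forms of respiratory subunits and Fabp3, and other sarcomere genes) had 9 of 38 tested members lower and 1 higher, with 59 measured. The lower ones included Fhod3, a formin of sarcomeres (log2 fold change -1.46), Myl4, an atrial myosin light chain (-1.05, and -2.72 by a dimmer probe set), Acta1, skeletal actin (-0.96), Myh7, the slow myosin heavy chain (-0.85), Fhl2, a LIM protein of heart (-0.81), and Fabp3, the heart fatty acid-binding protein (-0.77). Myh9, a non-muscle myosin, was the member called higher (0.49). Muscle genes such as Ckm, Des and Tnnc2 did not pass (adjusted p = 0.926, 0.969 and 0.884). No test was made of the list, since it was chosen on these values.

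Of the 3727 probe sets left out by the filter, 18 did not overlap between the regions, 10 of them higher in the hippocampus. Among the 8695 tested probe sets, 540 (6.21%) did not overlap. How many of the 18 would arise by chance was not tested, and limma called 13 of them when no filter was applied. The genes named here were picked after their values were seen. Trhr, the receptor of thyrotropin-releasing hormone, had 136.9 to 255.7 in the hippocampus and 19.7 to 50.4 in the neocortex, and was called when no filter was applied (adjusted p = 6.42e-05). Epha4, an ephrin receptor, was at 29.8 to 75.4 in the hippocampus and 123.9 to 314.9 in the neocortex (log2 fold change -1.80, adjusted p = 0.00125 with no filter). In nicotine mice Epha4 had a log2 fold change of 0.55, of the other sign (adjusted p = 0.476). Oprk1, the kappa opioid receptor, had 32.4 to 87.8 in the hippocampus and 90.1 to 223.9 in the neocortex and was not called (adjusted p = 0.119).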
